A study of Mus musculus with 20 samples.

Results

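Interferon-stimulated genes are the genes that cells switch on when an interferon binds its receptor. A set of 38 of them was taken by gene symbol from the 47069 genes with a count in the kidney RNA-seq data of a mouse model of Alport syndrome. All 38 passed the filter on low counts and were tested, among 17622 genes in all. By role, the set holds 4 transcription factors, 4 sensors of foreign RNA and DNA, 3 IFIT proteins, 2 genes of the ISG15 system, 5 genes of the OAS family, 6 antiviral restriction factors, 3 guanylate-binding proteins, 3 immunity-related GTPases and 8 other induced genes.

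Type I interferons signal through the IFNAR receptor to a complex that holds STAT2 and IRF9 and binds the interferon-stimulated response element (ISRE) in the promoters of its targets. Interferon gamma signals through the IFNGR receptor to the gamma-activated site (GAS) in its targets and induces, through IRF1, a later wave of genes that includes many GTPases. In injured kidney, both infiltrating leukocytes and resident cells can carry this response.

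Whole-kidney RNA was sequenced from 20 male mice on a mixed 129SJ and C57Bl/6J background, each at 15 weeks of age. Untreated WT littermates (n = 5) were compared with F1-Col4a3-/- mice, in which Col4a3, the gene for a collagen IV chain of the glomerular basement membrane, is disrupted on both alleles. The knockouts received phosphate-buffered saline by weekly subcutaneous injection (Veh, n = 6), the anti-miR-21 oligonucleotide Lademirsen at 50 mg/kg by the same route each week (Anti-miR-21, n = 6), or the angiotensin-converting enzyme inhibitor ramipril in drinking water (ACEi, n = 3), from 5 weeks of age. According to the paper, the ACEi group was given the weekly saline injections too. The sample labels give ramipril as 11 mg/L and the deposited list of libraries as 4 mg/kg. The Veh mice were the controls of both treatments, so the 2 treatment comparisons share them. Every mouse is a library of its own and is called here by its deposited code (A1 to A23). All p-values below measure the spread between these mice.

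The libraries held 28474301 to 29479629 estimated counts, a range too narrow to set mice apart by depth. Levels are given as CPM, counts scaled to a common library size, after TMM scaling, which divides each library by a factor computed from the bulk of its genes. The WT mice had factors of 0.771 to 0.850 and the Veh mice of 1.12 to 1.26, and the values that depend on them are given below. The disrupted Col4a3 lay at 194 to 237 CPM in the 5 WT mice and at 27.9 to 74.8 CPM in the 15 knockouts, so no mouse went against its genotype label. Markers of the proximal tubule, which defines kidney cortex, summed to 11684 to 14981 CPM in WT and to 1291 to 3628 CPM in Veh. The labelled extraction protocol speaks of adipose tissue, and 5 adipocyte markers summed to between 0.393 and 120 CPM, with the 4 highest mice in Veh and Anti-miR-21. Libraries ran on 2 flow cells, of 13 and 7 libraries, each with mice of all 4 groups. One Veh mouse, A16, stood apart from the other Veh mice in several members, and the results that rest on it are given with and without it.

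The members lie on 14 chromosomes of GRCm38, and several are neighbours. Ifit1, Ifit2 and Ifit3 lie together on chromosome 19, Oas1a, Oas2 and Oas3 on chromosome 5, Gbp2, Gbp3 and Gbp7 on chromosome 3, and Mx1 and Mx2 on chromosome 16. Rsad2 (ENSMUSG00000020641, chr12:26442746-26456452, minus strand) and Cmpk2 (ENSMUSG00000020638, chr12:26469204-26479837, plus strand) are neighbours that point away from each other. For 13 members another annotated gene overlaps the gene body. On the same strand these are Rnf31 at Irf9, Irgm2 at Igtp and Gm43802 at Gbp7, and reads in the shared part could count towards either gene. Mx1 and Mx2 are transcribed pseudogenes in the RefSeq annotation of the reference strain.

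The elements through which interferons act can be read in the promoters. RefSeq sequence of GRCm38.p6, from 250 bases before to 50 after the start site, was at hand for 28 of the 38 members. The ISRE core was searched as GAAANNGAAA and the GAS element as TTCNNNGAA, on both strands, with overlapping matches counted separately. The ISRE core occurred in 17 of the 28 members (60.7%), against 3.99% of 27025 genes with such a window. The GAS letters occurred in 8 members (28.6%), against 9.55% of all genes. Both occurred in 5 members and neither in 8. All 5 GTPase genes with a window held the ISRE core. Such matches describe the sequence and do not show that a factor bound there in these kidneys.

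Stretches around the motifs are shown for 8 members that the results below turn on, with the motif letters in capitals and each read 5′ to 3′ on the strand of its gene. Irf1 (chr11:53769899-53769957, plus) has a GAS and no ISRE core, and Isg15 (chr4:156200850-156200921, minus) and Ifit1 (chr19:34640760-34640838, plus) have 3 and 2 ISRE cores.
Irf1: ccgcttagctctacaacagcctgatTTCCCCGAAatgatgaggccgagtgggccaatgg
Isg15: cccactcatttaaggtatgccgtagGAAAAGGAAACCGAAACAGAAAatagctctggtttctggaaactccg
Ifit1: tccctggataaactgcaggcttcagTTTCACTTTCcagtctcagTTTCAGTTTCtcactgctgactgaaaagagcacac
Gbp2 (chr3:142620579-142620638, plus), Igtp (chr11:58199486-58199556, plus) and Irgm1 (chr11:48871410-48871475, minus) are GTPase genes in which the Veh mouse A16 stood apart, as it also did in Gbp3 and Iigp1, whose sequence is not shown. Igtp has a GAS just upstream of its ISRE core.
Gbp2: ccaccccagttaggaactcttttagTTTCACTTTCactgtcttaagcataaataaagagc
Igtp: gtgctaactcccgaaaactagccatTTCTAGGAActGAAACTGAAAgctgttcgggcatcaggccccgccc
Irgm1: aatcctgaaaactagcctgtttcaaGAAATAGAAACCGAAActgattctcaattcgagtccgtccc
Bst2 (chr8:71537562-71537633, minus) has a GAS that runs into a pair of ISRE cores. Rsad2 (chr12:26456538-26456597, minus) holds an ISRE core too, although it was not higher in Veh than in WT. No match was found in the Cmpk2 window.
Bst2: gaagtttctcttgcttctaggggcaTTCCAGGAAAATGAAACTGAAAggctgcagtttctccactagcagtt
Rsad2: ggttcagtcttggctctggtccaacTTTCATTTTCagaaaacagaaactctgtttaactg

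The first comparison asks how the interferon-stimulated genes stand in diseased, untreated kidney. Of the 38 members, 36 were higher in Veh than in WT at an adjusted p under 0.05 (edgeR, Benjamini-Hochberg over all tested genes) and none was lower, where 39.0% of all tested genes were higher and 34.0% lower. In the same 36, every Veh mouse lay above every WT mouse, against 28.8% of all genes. The median log2 fold change of the members was 2.23, and that of all genes 0.07. Rsad2 and Cmpk2 were the exceptions. All 36 calls held with each mouse left out in turn and under every alternative in which the gene was tested (Mx1 and Oas3 drop out where every mouse must have at least 10 counts). In bulk tissue, more cells that express a gene and more RNA per cell cannot be told apart.

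**Figure D1:**
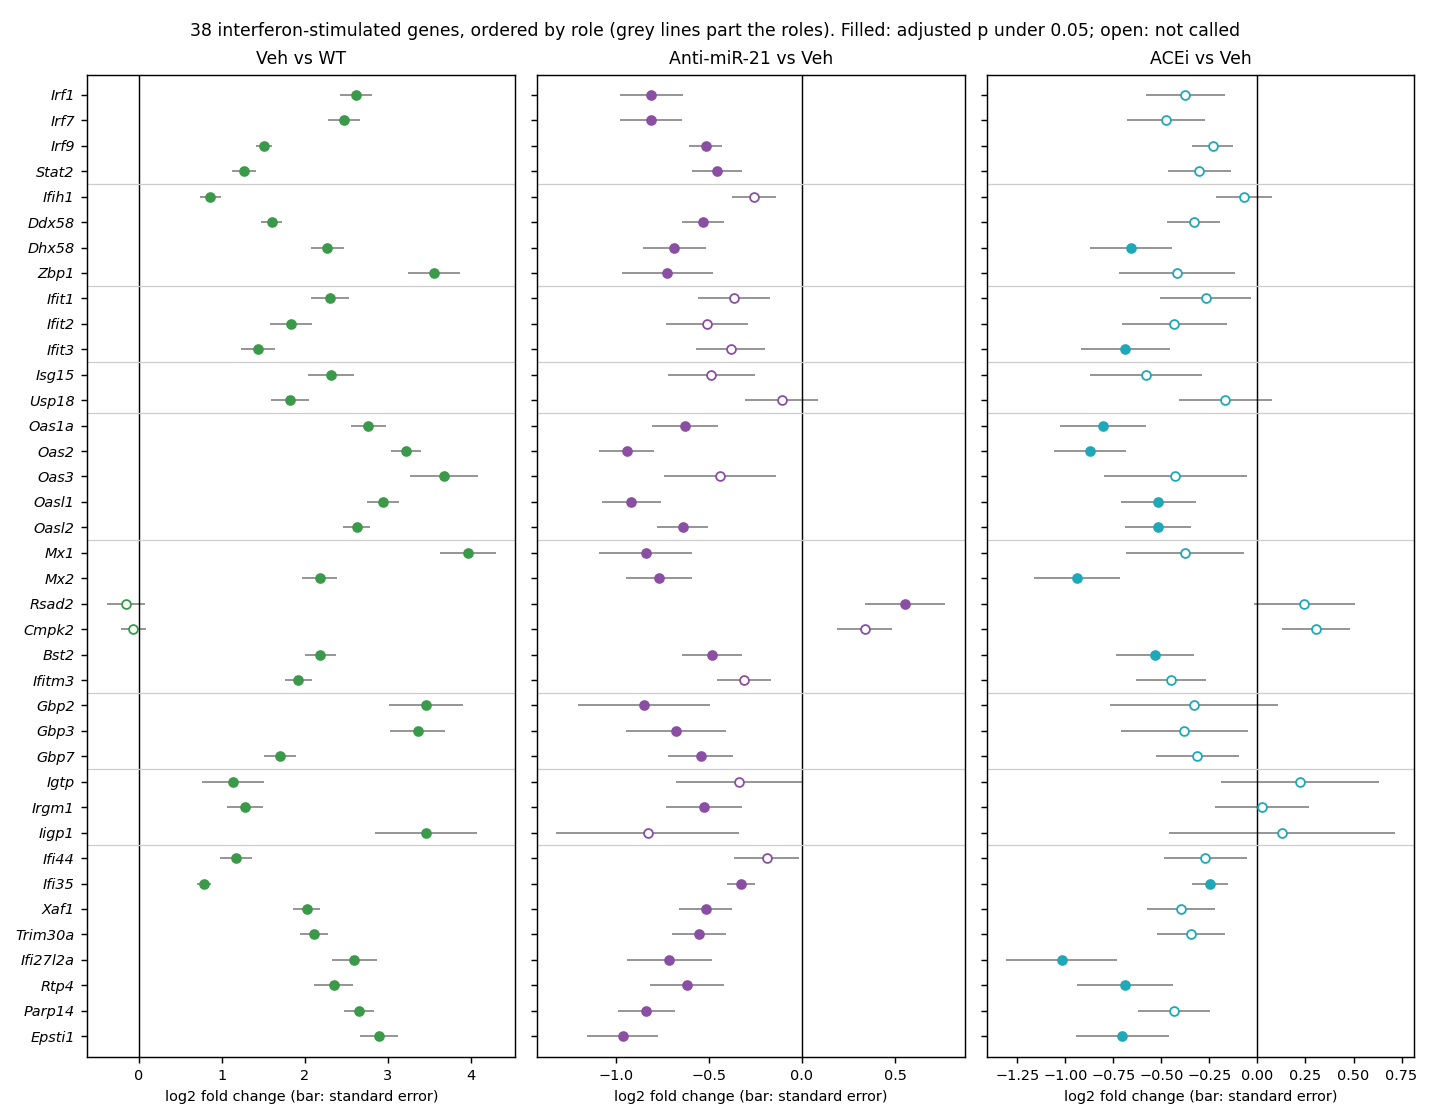
Log2 fold change (x axis) of each of the 38 members (y axis, by role) in Veh vs WT and in each treatment vs Veh, with bars of 1 standard error. Filled points passed an adjusted p of 0.05: 36 members lie to the right in Veh vs WT, while 25 lie to the left in Anti-miR-21 vs Veh and 12 in ACEi vs Veh.

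All 4 transcription factors rose. Irf1, the interferon gamma-responsive activator, was at 10.5, 11.6, 14.5, 13.6 and 8.01 CPM in the WT mice and at 58.6 to 108 CPM (median 64.1) in Veh. Its lowest Veh mouse was thus several times above its highest WT mouse, a 6.13-fold difference in the fit (log2 fold change 2.62, SE 0.19, adjusted p = 2.53e-10). Irf7, which amplifies type I interferon production, rose by a log2 fold change of 2.48. Irf9 and Stat2, which act together in the type I complex, rose less, by 1.5 and 1.27.

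The 4 sensors rose by log2 fold changes from 0.86 to 3.55. Zbp1, which senses Z-form nucleic acid and can trigger necroptosis, was at 0.801, 0.820, 0.760, 0.940 and 1.01 CPM in WT and at 6.58 to 19.7 CPM (median 9.15) in Veh (log2 fold change 3.55, SE 0.31, adjusted p = 2.95e-09). Its highest Veh value belonged to A16, and the others reached at most 9.64 CPM. Among the RNA helicases, Ddx58, which encodes RIG-I, was at 13.4, 19.4, 17.1, 14.8 and 14.2 CPM in WT and at 41.5 to 57.2 CPM (median 45.9) in Veh (log2 fold change 1.6, SE 0.12, adjusted p = 4.40e-10). Dhx58, which encodes LGP2, rose by 2.27 and Ifih1, which encodes MDA5, by 0.86, the smallest rise of the sensors.

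The IFIT proteins, which bind foreign RNA and block its translation, rose in all 3 members. Ifit1 went from 1.87, 2.58, 2.36, 1.88 and 1.22 CPM in WT to 6.97 to 13.6 CPM (median 8.94) in Veh (log2 fold change 2.31, SE 0.23, adjusted p = 1.28e-08). Ifit3 was at 8.68, 15.5, 20.4, 20.7 and 16.1 CPM in WT and at 36.0 to 52.7 CPM (median 44.1) in Veh (log2 fold change 1.44, SE 0.20). In both genes the groups did not overlap, although Ifit3 varied more among the WT mice. Ifit2 rose by 1.84. Isg15, a ubiquitin-like modifier, was at 1.51, 3.24, 2.11, 1.84 and 0.671 CPM in WT and at 6.05 to 13.4 CPM (median 9.50) in Veh (log2 fold change 2.32, SE 0.27). Usp18, which removes ISG15 from proteins and damps IFNAR signalling, rose by 1.82.

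The OAS genes rose together and strongly, by log2 fold changes from 2.63 to 3.67. The products of Oas1a, Oas2 and Oas3 make oligoadenylates that activate RNase L. Oasl2 was at 6.10, 7.26, 7.64, 6.33 and 4.19 CPM in WT and at 30.2 to 52.1 CPM (median 37.4) in Veh (log2 fold change 2.63, SE 0.16, adjusted p = 2.89e-11). Oas3 was close to absent in WT, at 0.178, 0.328, 0.0844, 0.327 and 0.0419 CPM, and reached 1.66 to 4.04 CPM (median 2.10) in Veh (log2 fold change 3.67, SE 0.41). Oas2 had the lowest adjusted p of the members, 8.96e-12, with a rise of 3.22. Oas1a rose by 2.77 and Oasl1 by 2.94.

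Among the restriction factors, 4 of 6 rose. Mx1 showed the largest fold change of the 38 members: from 0.223, 0.451, 0.464, 0.490 and 0.126 CPM in WT to 3.78 to 7.14 CPM (median 5.56) in Veh (log2 fold change 3.96, SE 0.34, adjusted p = 1.62e-09). The WT libraries held only 3 to 12 counts of it, so the size of this fold change is uncertain. Oas3 and Zbp1 came close to it. Functional Mx1 is a dynamin-like GTPase that blocks influenza viruses. The RefSeq annotation of the reference strain, however, holds Mx1 and Mx2 as transcribed pseudogenes. Ifitm3, which hinders the entry of viruses from endosomes, was at 15.8, 20.1, 19.7, 22.3 and 12.4 CPM in WT and at 55.5 to 84.7 CPM (median 67.5) in Veh (log2 fold change 1.93, SE 0.16). Bst2, which tethers budding virions, rose by 2.19, and Mx2 by 2.18.

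The remaining restriction factors, Rsad2 and Cmpk2, are described here after their values were seen. Rsad2 encodes viperin, an enzyme that makes a chain-terminating nucleotide, and Cmpk2 a mitochondrial nucleotide kinase. Rsad2 was at 13, 24.8, 15.1, 11.9 and 7.51 CPM in WT and at 9.74 to 16.1 CPM (median 13.1) in Veh, and the groups overlapped (log2 fold change -0.16, SE 0.23, adjusted p = 0.546). Cmpk2 was at 10.6 to 13.4 CPM in WT and at 8.26 to 15.6 CPM in Veh (log2 fold change -0.06, SE 0.15, adjusted p = 0.726). Both signs turned with other scalings, since without TMM Cmpk2 came out at 0.51 (adjusted p = 0.00707) and Rsad2 at 0.42. On the larger flow cell alone, Rsad2 was lower in Veh (-0.62, adjusted p = 0.0313).

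All 6 guanylate-binding and immunity-related GTPases, which take part in defence against intracellular pathogens, rose. Gbp2 was at 4.23, 5.17, 4.69, 6.01 and 1.89 CPM in WT and at 27.3 to 133 CPM (median 31.3) in Veh (log2 fold change 3.46, SE 0.44, adjusted p = 5.59e-07). Iigp1 was at 2.23, 4.14, 3.93, 3.88 and 2.01 CPM in WT and at 14.3 to 125 CPM (median 17.9) in Veh (log2 fold change 3.46, SE 0.61, adjusted p = 3.83e-05). Irgm1, at 45.5, 39.3, 33.4, 35.8 and 33.9 CPM in WT, reached 65.3 to 178 CPM (median 73.0) in Veh (log2 fold change 1.28, SE 0.22, adjusted p = 2.41e-05). The highest Veh value of each was that of A16, a library of the smaller flow cell. Gbp3 rose by 3.36, Gbp7 by 1.71 and Igtp by 1.14. Without A16 the rises were smaller and still called: 2.85 for Gbp2, 2.47 for Iigp1, 0.98 for Irgm1, and 0.54 (adjusted p = 0.0353) in place of 1.14 for Igtp.

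All 8 other induced genes rose, by 0.79 to 2.89. Parp14, an ADP-ribosyltransferase, was at 7.30, 10.0, 8.66, 7.56 and 4.86 CPM in WT and at 38.9 to 62.9 CPM (median 46.4) in Veh (log2 fold change 2.66, SE 0.18, adjusted p = 6.96e-11). Epsti1 was at 1.25, 2.58, 2.36, 2.37 and 0.922 CPM in WT and at 13.2 to 17.2 CPM (median 13.6) in Veh (log2 fold change 2.89, SE 0.23), with the Veh mice in a narrow band well above WT. The smallest rise was that of Ifi35, at 0.79. Ifi27l2a, a small mitochondrial protein, rose by 2.60, Xaf1, a pro-apoptotic factor, by 2.02, and Trim30a, a ubiquitin ligase, by 2.11. Rtp4 rose by 2.35 and Ifi44 by 1.18.

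**Figure D2:**
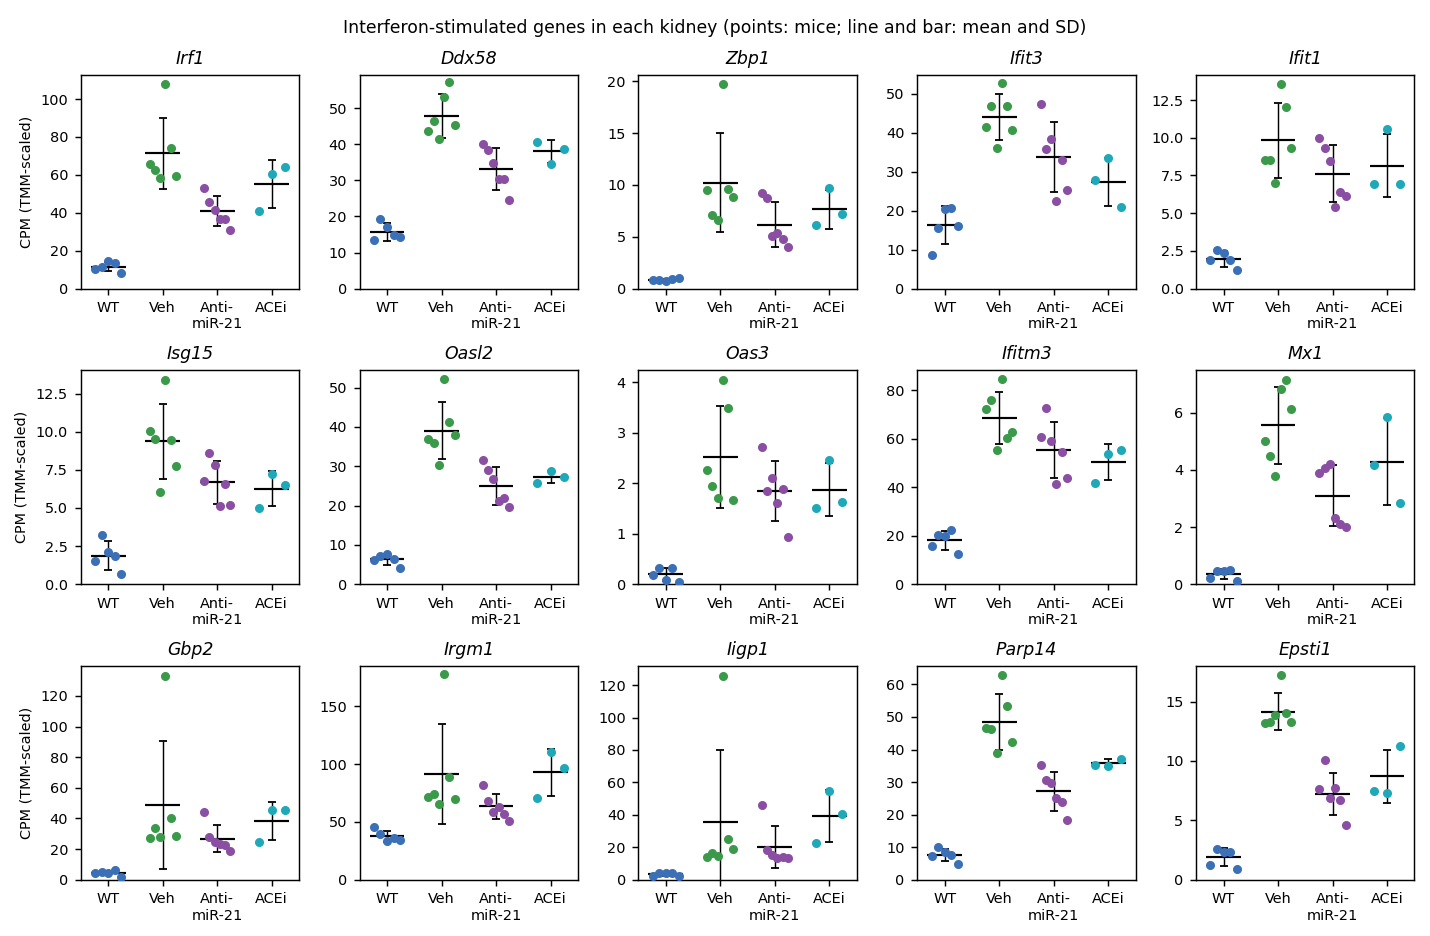
CPM after TMM scaling (y axis, from 0 and on its own range in each panel) of the 15 members named by rule, in each mouse (points) by group (x axis); the line and bar are the mean and SD. Veh lies above WT without overlap in every panel, and in Gbp2, Irgm1 and Iigp1 a single Veh mouse, A16, lies far above the rest, at 133, 178 and 125 CPM.

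Per length of transcript, on the deposited FPKM scale, the order of the members was led in Veh by Ifitm3 at 131 ± 16.2 FPKM, Bst2 at 74.7 ± 19.4, Ifi27l2a at 58.5 ± 25.9, Irgm1 at 47.9 ± 19.4 and Irf1 at 40.9 ± 8.80 (SD, n = 6). From Bst2 to Irf1 each neighbour lay within 1 SD of the next. In WT the order began with Ifitm3 at 23 ± 5.67 FPKM and Irgm1 at 13.2 ± 1.42 (SD, n = 5). Oas3 was the lowest in both groups, at 0.033 ± 0.020 FPKM in WT and 0.66 ± 0.24 in Veh.

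Anti-miR-21 against Veh asks how many of these genes moved under the oligonucleotide. It lowered 25 members and raised 1, Rsad2, where 30.5% of all genes were lower and 28.8% higher. Every treated mouse lay below every Veh mouse in 10 members, against 17.9% of all genes. The median log2 fold change of the members was -0.54, and that of all genes -0.04. By role, the lowered genes were all 4 transcription factors, 3 of 4 sensors, 4 of 5 OAS genes, 3 of 6 restriction factors, all 3 guanylate-binding proteins, 1 of 3 immunity-related GTPases and 7 of 8 other induced genes. No IFIT gene and neither gene of the ISG15 system passed the test, nor did Ifih1 (-0.26), Igtp (-0.34) and Ifi44 (-0.19). On the larger flow cell alone, 19 members were lower and 2 higher, where 27.9% of all genes were lower and 27.7% higher.

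Irf1 fell to 30.8 to 53.1 CPM (median 39.3) under Anti-miR-21, below the whole Veh range (log2 fold change -0.81, SE 0.17, adjusted p = 0.000346). Ddx58 was at 24.6 to 40.0 CPM (median 32.7) and also did not overlap with Veh (log2 fold change -0.53, SE 0.11, adjusted p = 0.000401). Parp14 reached 18.2 to 35.2 CPM (median 27.4; log2 fold change -0.84, SE 0.15, adjusted p = 8.98e-05), again without overlap. Epsti1 showed the largest fall of the set, to 4.61 to 10.0 CPM (median 7.24; log2 fold change -0.96, SE 0.19, adjusted p = 0.000249). Oas2 and Oasl1 fell by 0.94 and 0.92 on the log2 scale, both without overlap, and Irf7 by 0.81.

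Other falls left the groups overlapping. Oasl2 was at 19.5 to 31.5 CPM under Anti-miR-21 (median 24.4; log2 fold change -0.64, SE 0.14, adjusted p = 0.000502). Mx1 was at 2.02 to 4.21 CPM (median 3.11; log2 fold change -0.84, SE 0.25, adjusted p = 0.00684). Zbp1 was at 4.03 to 9.22 CPM (median 5.20; log2 fold change -0.72, adjusted p = 0.0153), and Gbp2 at 18.8 to 44.5 CPM (median 24; log2 fold change -0.85, adjusted p = 0.0464). For Zbp1 and Gbp2 the call rested on A16, as described below.

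Members that did not pass included Ifit1, at 5.39 to 9.96 CPM (median 7.44; log2 fold change -0.36, SE 0.19, adjusted p = 0.108), and Ifit3, at 22.5 to 47.3 CPM (median 34.5; -0.38, adjusted p = 0.0812). Isg15 was at 5.13 to 8.61 CPM (median 6.67; -0.49, adjusted p = 0.0785), Oas3 at 0.930 to 2.73 CPM (median 1.86; -0.44, adjusted p = 0.215), and Ifitm3 at 41.2 to 72.5 CPM (median 56.8; -0.31, adjusted p = 0.0746). All of these overlapped with Veh. Usp18 differed least from Veh among the lower members, at -0.11 (adjusted p = 0.652). Rsad2 rose to 12.7 to 24.2 CPM (median 19.1; log2 fold change 0.55, SE 0.22, adjusted p = 0.0321), with 0.34 (adjusted p = 0.054) for its neighbour Cmpk2. The rise of Rsad2 was not called with upper-quartile scaling (0.48, adjusted p = 0.057), with library totals alone (0.23, adjusted p = 0.370), on the FPKM scales, without the 4 mice highest in adipocyte markers (0.42, adjusted p = 0.187), or without A1, A9, A2 or A15 (0.47 to 0.65 with single mice left out).

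ACEi against Veh had 3 treated mice. It lowered 12 members and raised none, where 19.1% of all genes were lower and 21.0% higher. All 3 ACEi mice lay below all 6 Veh mice in 13 members, against 18.8% of all genes. The median log2 fold change of the members was -0.39, against -0.05 for all genes. The 12 were 4 of 5 OAS genes (Oas1a, Oas2, Oasl1 and Oasl2), the sensor Dhx58, Ifit3, the restriction factors Mx2 and Bst2, and Epsti1, Ifi27l2a, Ifi35 and Rtp4. No transcription factor, guanylate-binding protein or immunity-related GTPase was among them. The number of calls ranged from 4 to 12 when single mice were left out. Without A11, 4 members were lower, where 14.5% of all genes were, and without A23, 5 were, where 15% of all genes were. Only 1 ACEi mouse ran on the larger flow cell, so no comparison within it was made, and with flow cell as a term in the model 11 members were lower, where 17.4% of all genes were. Of 5 adipocyte markers, 4 were lower in ACEi than in Veh, and without the 4 mice highest in them, 3 of which were Veh mice, 5 members were called lower, where 8.81% of all genes were. The part of adipose tissue in these calls was not tested.

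Epsti1 was at 7.47, 7.33 and 11.3 CPM in the ACEi mice, below all Veh mice (log2 fold change -0.70, SE 0.24, adjusted p = 0.0249). Oasl2 was at 25.8, 28.7 and 27.2 CPM, also below Veh (log2 fold change -0.52, SE 0.17, adjusted p = 0.0209). Ifit3 was at 27.8, 33.4 and 20.9 CPM (log2 fold change -0.69, SE 0.23, adjusted p = 0.0241). Ifi27l2a had the largest fall, 1.02 on the log2 scale (adjusted p = 0.00854), and Oas2 the lowest adjusted p, 0.00105, at -0.87.

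Other members did not pass in ACEi. Irf1 was at 40.8, 60.2 and 64.2 CPM, the last 2 values within the Veh range (log2 fold change -0.37, SE 0.21, adjusted p = 0.155). Ddx58, at 40.8, 34.6 and 38.8 CPM, lay below every Veh mouse and missed the threshold (-0.33, adjusted p = 0.0618), as did Parp14 at 35.3, 34.9 and 37.2 CPM (-0.44, adjusted p = 0.0694) and Ifitm3 at 41.7, 53.8 and 55.3 CPM (-0.45, adjusted p = 0.0562). Mx1 was at 4.16, 5.87 and 2.83 CPM (-0.38, adjusted p = 0.344) and Zbp1 at 6.10, 9.69 and 7.15 CPM (-0.42, adjusted p = 0.282). Isg15 was at 5.02, 7.26 and 6.51 CPM (-0.58, adjusted p = 0.119), Ifit1 at 6.92, 10.6 and 6.95 CPM (-0.27, adjusted p = 0.384), and Oas3 at 1.51, 2.47 and 1.63 CPM (-0.43, adjusted p = 0.380). Each of these last 5 overlapped with Veh. The GTPases are given below.

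Set directly against each other, the treatments were not told apart in any member. Anti-miR-21 against ACEi gave 0 calls among the 38 by edgeR, where 0.363% of all genes were higher and 0.221% lower. DESeq2 and limma also gave 0. At an unadjusted p under 0.05, edgeR had 4 members lower under Anti-miR-21 and 0 higher, and DESeq2 and limma each 5 lower and 0 higher. The smallest adjusted p by edgeR was 0.226, that of Irf9, the only member in which every Anti-miR-21 mouse lay below every ACEi mouse (-0.28), against 4.80% of all genes. The members' log2 fold changes ran from -0.955 for Iigp1 to 0.31 for Rsad2, with a median of -0.12. A p that misses the threshold does not show that the treatments act alike on these genes.

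Under both treatments the members stayed above WT. Anti-miR-21 mice were higher than WT mice in 35 members, where 23.9% of all genes were higher, and ACEi mice in 36, where 25.2% were. Among the members higher in Veh, Igtp alone was not called in Anti-miR-21 against WT (0.80, adjusted p = 0.0852). Irf1 remained at log2 fold changes of 1.81 and 2.24 over WT under Anti-miR-21 and ACEi, and Mx1 at 3.12 and 3.59.

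**Figure D3:**
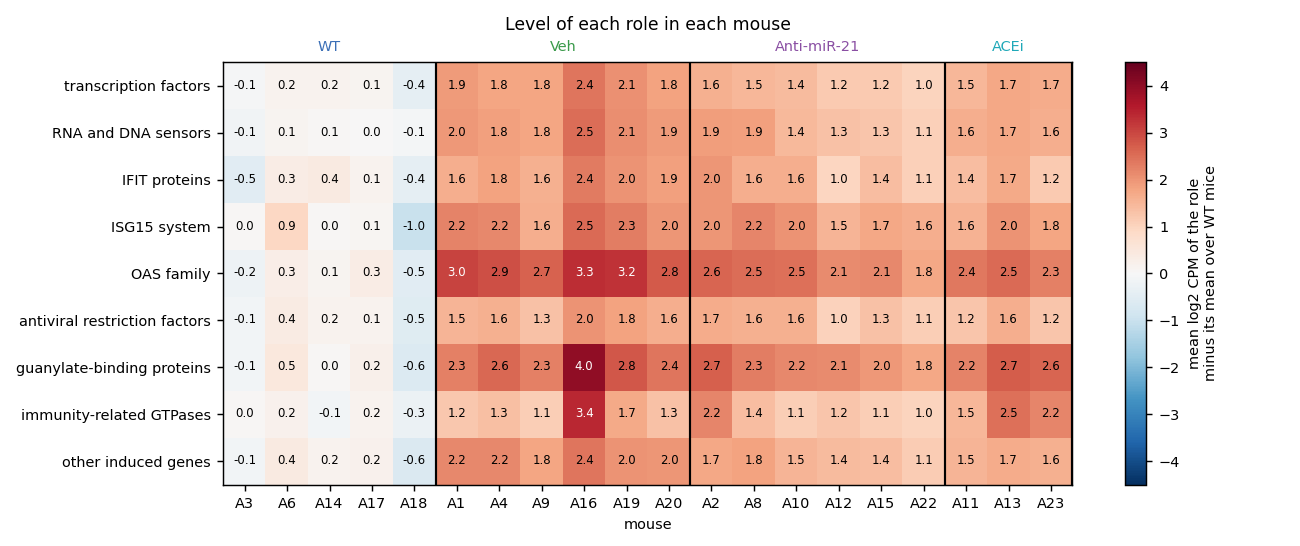
Mean log2 CPM of the members of each role (y axis) in each of the 20 mice (x axis, by group), less its mean over the WT mice; colour and printed value give this difference. Every knockout is above 0 in every role, and A16 is the highest mouse in all 9 roles, from 2.01 in the restriction factors to 4.01 in the guanylate-binding proteins, with 3.39 in the immunity-related GTPases.

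A single Veh mouse carried much of the spread of the GTPases, and its mean level was the highest of the 20 mice in all 9 roles. A16 was at 133 CPM for Gbp2, where the next Veh mouse had 40.1, at 73.1 CPM for Gbp3 against 29.7, at 87.2 CPM for Igtp against 25.2, at 178 CPM for Irgm1 against 89.2, and at 125 CPM for Iigp1 against 25.1. It lay far above the other 5 in each of these. The GTPase paralogs Tgtp1 and Gbp6 were also at 243 and 122 CPM in A16.

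The treatment comparisons of the GTPases turned on this mouse. Iigp1 was at 13.1 to 46.2 CPM (median 14.7) under Anti-miR-21 and at 22.6, 54.4 and 40.2 CPM under ACEi, with log2 fold changes against Veh of -0.83 (adjusted p = 0.154) and 0.13 (adjusted p = 0.883). Without A16 these became 0.19 (adjusted p = 0.613) and 1.15 (adjusted p = 0.0152). The ACEi mouse with 22.6 CPM still lay below the highest other Veh mouse, A19 at 25.1 CPM. A16 was singled out because it was highest in these genes, and leaving it out lowers the Veh mean in any case. The p-values without A16 therefore describe how far the results rest on it and are no test of a rise. Igtp likewise went from 0.22 (adjusted p = 0.695) to 0.85 (adjusted p = 0.00858) in ACEi against Veh. Irgm1, at 50.9 to 82.1 CPM (median 61.0) under Anti-miR-21, lost its fall there, from -0.53 (adjusted p = 0.0306) to -0.20 (adjusted p = 0.172). Under ACEi it was at 70.9, 111 and 96.8 CPM (0.02, adjusted p = 0.951, and 0.35 without A16, adjusted p = 0.0647). Gbp2, at 24.3, 45.8 and 45.5 CPM under ACEi (-0.33, adjusted p = 0.574), moved to 0.31 (adjusted p = 0.375), and under Anti-miR-21 from -0.85 to -0.21 (adjusted p = 0.447).

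Over the set, leaving out A16 changed Anti-miR-21 against Veh from 25 lower and 1 higher to 19 lower and 2 higher, where 28.8% of all genes were lower and 29.9% higher. Zbp1, Bst2, Gbp2, Gbp3, Gbp7 and Irgm1 were no longer called, and Cmpk2 was now called higher (0.48, adjusted p = 0.00515). ACEi against Veh changed from 12 lower and 0 higher to 5 lower and 3 higher, where 17.8% of all genes were lower and 23.8% higher, so that the lowered members were no more frequent than lowered genes at large. Ifit3, Oasl1, Oasl2, Bst2, Ifi35, Rtp4 and Epsti1 were no longer called, and Cmpk2 (0.45), Igtp and Iigp1 were gained as higher. All 36 rises in Veh against WT were kept.

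**Figure D4:**
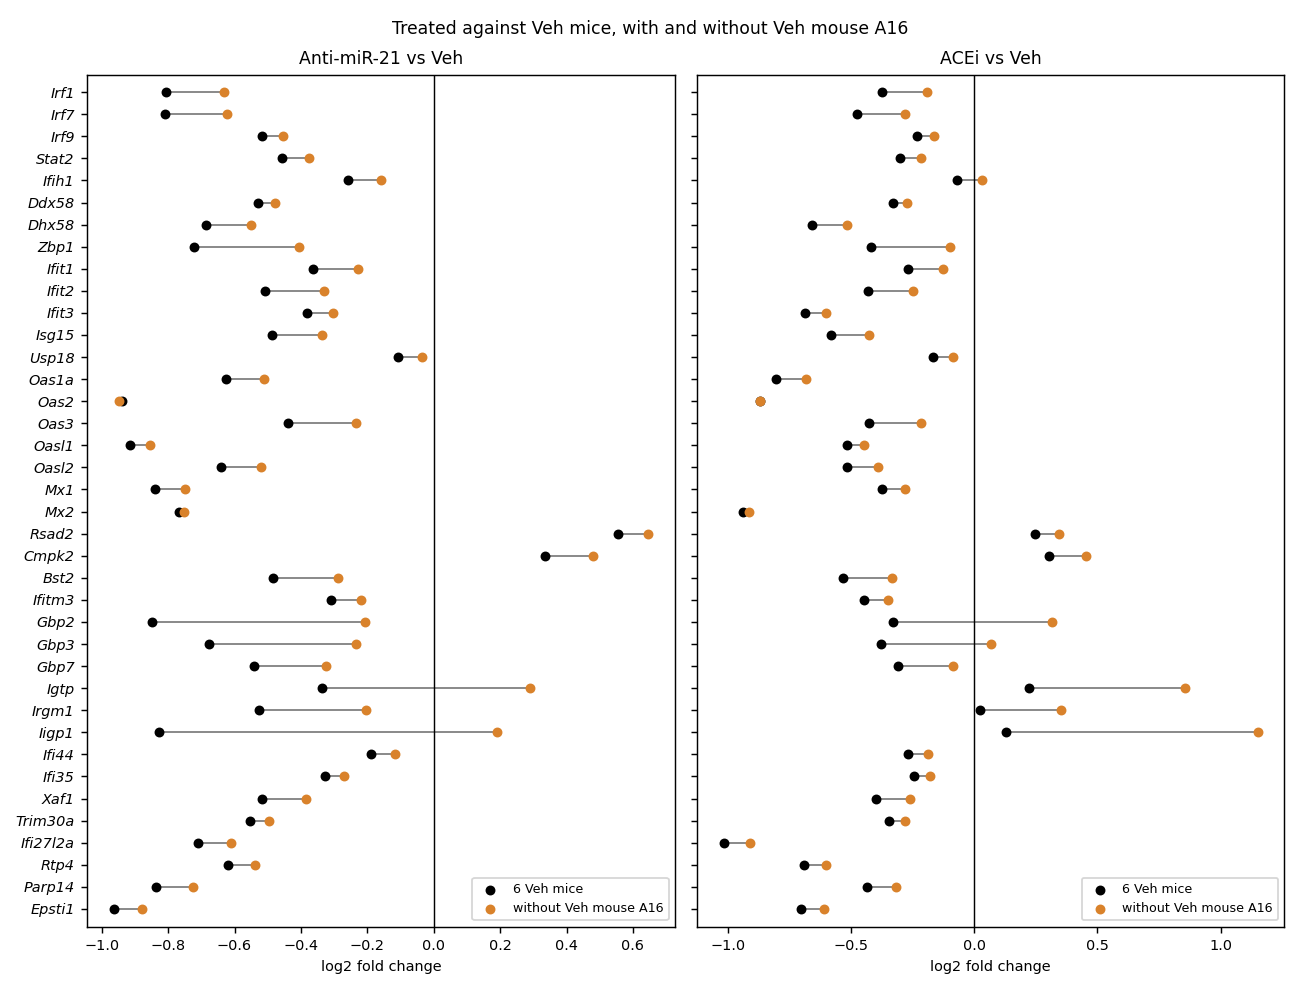
Log2 fold change (x axis) of the 38 members (y axis) in each treatment vs Veh, with all 6 Veh mice (black) and without Veh mouse A16 (orange). The GTPases move farthest to the right; Iigp1 moves from -0.83 to 0.19 under Anti-miR-21 and from 0.13 to 1.15 under ACEi.

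Calls that held with every single mouse left out numbered 18 of 26 for Anti-miR-21 against Veh and 4 of 12 for ACEi against Veh. The first were Irf1, Irf7, Irf9, Stat2, Ddx58, Dhx58, Oas1a, Oas2, Oasl1, Oasl2, Mx1, Mx2, Ifi35, Xaf1, Trim30a, Rtp4, Parp14 and Epsti1. The second were Oas1a, Oas2, Mx2 and Ifi27l2a. Under all alternatives as well, 16 and 3 calls held, since Stat2 and Rtp4 dropped out of the first and Ifi27l2a out of the second.

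The rest of the interferon pathway was followed with 50 further genes, of which 29 were expressed enough to be tested. Of the 21 interferon genes none was. Ifng had 0 to 16 counts per library, with the 16 in A16, Ifnb1 0 to 4 and Ifnz 0 to 9. The other 18 had at most 2 counts in any mouse, so their levels were at or under the floor of 3 counts and not detectable at this depth.

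All 6 receptor genes rose in Veh against WT, where 39.0% of all tested genes were higher. Ifngr1 and Ifngr2, the chains of the interferon gamma receptor, rose by log2 fold changes of 1.82 (adjusted p = 4.25e-12) and 1.69 (adjusted p = 3.13e-12), and Ifnar1 and Ifnar2, those of the type I receptor, by 1.03 and 0.83. All 6 were lower in Anti-miR-21 than in Veh, where 30.5% of all genes were lower, and 5 of 6 in ACEi, where 19.1% were. Ifngr2 was the only pathway gene called between the treatments, lower in Anti-miR-21 than in ACEi (-0.43, adjusted p = 0.0437).

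Of the 7 signal transducers, 6 rose and 1 fell in Veh against WT, where 39.0% of all tested genes rose and 34.0% fell. Irf8, a factor of myeloid cells, rose by 2.04, and Irf3 fell by 0.19. Upstream, 7 of 11 sensing genes rose and 4 fell, led by Tmem173, which encodes STING, at 3.58, and Tlr9, a receptor for DNA, at 3.42. Among 5 negative regulators 4 rose, with Socs3 at 4.96 and Socs1 at 1.98. Against Veh, 20 of 29 pathway genes were lower and 1 higher in Anti-miR-21 (30.5% and 28.8% of all genes). In ACEi, 14 of the 29 were lower and 4 higher (19.1% and 21.0% of all genes). Of 26 paralogs of the members 23 were tested, and in Veh against WT 21 rose and 1 fell.

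Markers of some leukocytes moved with the members. All 7 macrophage markers were higher in Veh (log2 fold changes 1.02 to 4.44), where 39.0% of all tested genes were higher. Their summed level was 149 to 166 CPM in WT, 992 to 1259 in Veh, 408 to 638 in Anti-miR-21 and 536 to 639 in ACEi. The members summed to 238 to 361, 839 to 1710, 585 to 963 and 764 to 971 CPM in the same groups. The macrophage markers were lower than in Veh in 7 of 7 cases under each treatment. Of all genes, 30.5% were lower under Anti-miR-21 and 19.1% under ACEi. All 5 T cell markers were higher in Veh too, and summed to 1.86 to 2.54 CPM in WT, 8.57 to 33.6 in Veh, 6.67 to 14.2 in Anti-miR-21 and 8.79 to 17.3 in ACEi. Against Veh, 4 of them were lower under Anti-miR-21 and 0 under ACEi by edgeR (also 0 at an unadjusted p under 0.05). All 3 markers of plasmacytoid dendritic cells, which make type I interferon, were higher in Veh, and summed to 1.76 to 2.38 CPM in WT and 3.58 to 5.44 in Veh. They were lower under Anti-miR-21 in 3 of 3 cases and under ACEi in 0. Other leukocyte lists had fewer markers called. Of natural killer cells 1 of 4 tested markers was higher in Veh, of B and plasma cells 3 of 5, and of neutrophils 1 of 3 tested. These counts stand beside 39.0% of all tested genes. Under Anti-miR-21, 1 marker of B and plasma cells, 1 of neutrophils and 0 of natural killer cells were lower than in Veh. None of the 3 lists had a marker called under ACEi. The natural killer marker Ncr1 had 0 to 17 counts. Among resident cells, all 5 fibroblast markers were higher in Veh, and 4 were lower under Anti-miR-21 and 2 under ACEi. They summed to 111 to 258 CPM in WT, 1503 to 1812 in Veh, 428 to 821 in Anti-miR-21 and 805 to 914 in ACEi. Of 5 endothelial markers 2 were higher and 1 lower in Veh, where 39.0% of all tested genes were higher and 34.0% lower. All 5 proximal tubule markers were lower. The part of any of these cells in the members' levels was not tested.

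A16 had the highest T cell sum of all 20 mice, 33.6 CPM, with Cd8a at 15.2 CPM where the other Veh mice had 2.65 to 3.96. The T cell marker Cd5 was not raised in A16, with 120 counts where the other Veh mice had 43 to 148. A16 also had the highest natural killer sum of all 20 mice, 3.24 CPM. Its macrophage markers were not raised, with the lowest mean log2 CPM of the Veh mice at 6.80. Its proximal tubule markers summed to 3628 CPM, the highest of the Veh mice. In the other knockout groups, the mice highest in the immunity-related GTPases, A2 of Anti-miR-21 and A13 of ACEi, were also highest in the T cell markers, at 14.2 and 17.3 CPM. Highest in the natural killer markers there were A15 and A23, at 2.07 and 2.18 CPM. The part of T cells or natural killer cells in the GTPase values was not tested.

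**Figure D5:**
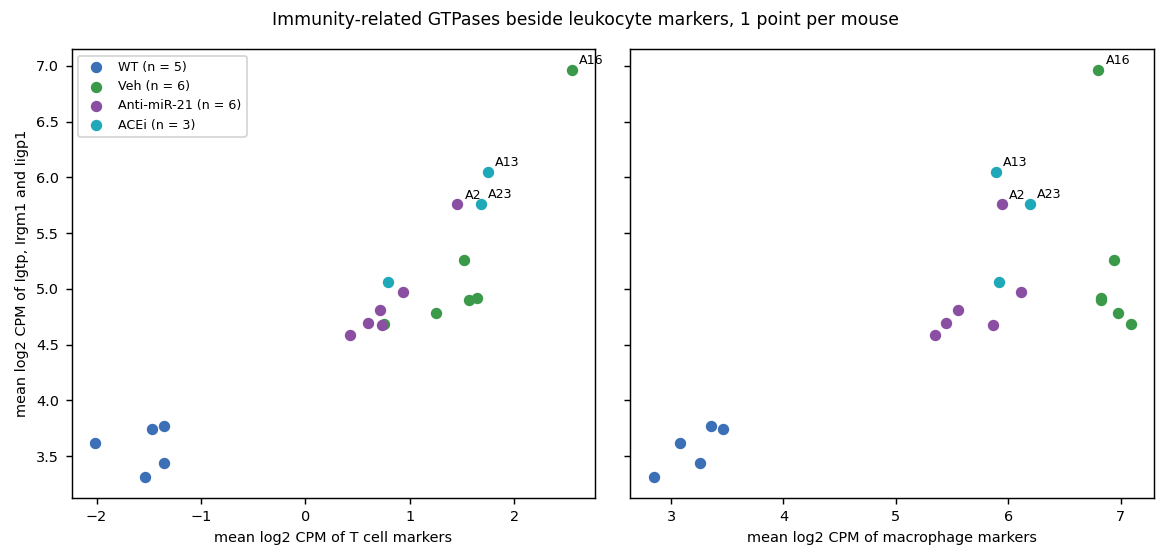
Mean log2 CPM of Igtp, Irgm1 and Iigp1 (y axis) against that of T cell and macrophage markers (x axes), with 1 point per mouse coloured by group. A16 lies at the top right for T cells, at 2.55, and at the lower edge of the Veh mice for macrophages, at 6.80.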

How the data were processed

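Kidney RNA from 20 mice was sequenced. Per the file headers and the labels, the authors aligned paired reads to GRCm38 with OmicSoft software and deposited estimated counts per Ensembl gene and FPKM on another gene model; strandedness of the counting is not given in the sources used here. Of the deposited libraries, 3 matched no sample and were not used. Estimated counts were rounded to whole numbers, filtered with filterByExpr (at least 10 counts, total 15) and tested with edgeR 4.0.16's quasi-likelihood test on TMM-scaled counts, 1 model over the 4 groups, with Benjamini-Hochberg adjustment over all 17622 genes and a threshold of 0.05. The CPM values are the rounded counts scaled by TMM. Log levels used a prior count of 2. DESeq2 1.42.0 on counts and limma 3.58.1 on the deposited FPKM as log2(FPKM + 1) and log2(FPKM + 0.1) were alternatives, with other scalings, filters, flow cell as a term, and each mouse left out. The fit was run on simulated data with 200 changed genes, as many raised as lowered. In Veh against WT 73% of genes were called, so the simulation does not test the scaling of such data. R 4.3.3, Python 3.11.15, pandas 2.3.3 and matplotlib 3.10.9 were used. Values in every mouse were given, per role, for the member with the highest mean CPM over all mice and the member with the largest absolute log2 fold change of Veh vs WT, and for members called lower in Veh or called between the treatments (none). The 2 most changed called genes of each role were named in the pathway. Rsad2, Cmpk2, Irf9 and other genes outside this rule were named after their values were seen. The members and lists were chosen with earlier results of these data known. The deposited list of libraries also holds alignment counts, 70004591 to 73294858 per library, used only to describe depth. One further gene is not reported here.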

Additional observations from a re-analysis of the deposited data

Results flagged for a closer look

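Within each group of 5 or 6 mice, the highest and the lowest mouse were compared with the nearest other mouse by Dixon's ratio, on log2 CPM, for all 38 members in WT, Veh and Anti-miR-21. Of 114 such groups, 11 held a mouse that stood apart, and 7 of the 11 were the Veh mouse A16. For independent groups about 1 in 20 (5%) would be flagged. The 38 members were measured in the same mice, so the groups are not independent and the count is no test against that share.

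A16 was the highest Veh mouse at 19.7 CPM for Zbp1 (next mouse 9.64), 133 CPM for Gbp2 (40.1), 73.1 CPM for Gbp3 (29.7), 87.2 CPM for Igtp (25.2), 178 CPM for Irgm1 (89.2), 125 CPM for Iigp1 (25.1) and 17.2 CPM for Epsti1 (14.1). In Epsti1 the gap was small and stood out since the other 5 mice lay close together. The other mice that stood apart were A19 at 5.27 CPM for Mx2 in Veh (3.92), A2 at 46.2 CPM for Iigp1 in Anti-miR-21 (18.5), A6 at 20.3 CPM for Stat2 as the highest WT mouse, and A18 at 15.9 CPM for Irf9 as the lowest WT mouse.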

How the results depend on the processing

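Calls of Veh against WT, Anti-miR-21 against Veh, Anti-miR-21 against ACEi and both treatments against WT stayed within 1.5 times of their number under every alternative. In ACEi against Veh, 12 members were called, all lower, where 19.1% of all genes were lower. With library totals alone 23 were lower, where 41.9% of all genes were. On log2(FPKM + 1) 24 were lower, against 36.3% of all genes, and on log2(FPKM + 0.1) 21, against 34.2%. With 1 mouse left out, 4 to 12 were called. Without the 4 mice highest in adipocyte markers, an alternative chosen after seeing the data, 5 were lower, against 8.81% of all genes. Without TMM the median of all genes moved from 0.0685 to 0.652 in Veh against WT, from -0.0406 to -0.38 in Anti-miR-21 and from -0.049 to -0.321 in ACEi against Veh, so more members passed as lower. The larger flow cell alone was not run for ACEi, and no paired analysis was possible because the mice carry no shared replicate numbers.

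Some signs turned. In Veh against WT, Cmpk2 (-0.06) became 0.044 with upper-quartile scaling, 0.51 with totals alone, 0.40 and 0.49 on the 2 FPKM scales and 0.19 without the adipocyte-marker mice, and ranged from -0.18 to 0.011 with 1 mouse left out. Rsad2 (-0.16) became 0.42, 0.37, 0.48 and 0.093 under the last 4 of these, and ranged from -0.32 to 0.13. In Anti-miR-21 against Veh, Igtp and Iigp1 became 0.33 and 0.27 on the larger flow cell and ranged from -0.54 to 0.29 and from -1.26 to 0.19 with 1 mouse left out. Cmpk2 became -0.000419 and -0.00186 on the FPKM scales. In ACEi against Veh, Irgm1 (0.02) became -0.044 with upper-quartile scaling, -0.23 with totals, -0.0104 with flow cell as a term, -0.18 and -0.19 on the FPKM scales and -0.24 without the adipocyte-marker mice, and ranged from -0.12 to 0.35. Rsad2 became -0.028 with totals and -0.0171 and -0.0189 on the FPKM scales. Igtp became -0.0224 with totals and -0.21 without the adipocyte-marker mice. Iigp1 became -0.10 and -0.50 under the same settings and ranged from -0.19 to 1.15 with 1 mouse left out. Ifih1, Gbp2 and Gbp3 ranged from -0.15 to 0.033, from -0.47 to 0.31 and from -0.47 to 0.068. The cause was not tested.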

Other observations

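Paralogs of the members that share their names or gene clusters are given here as values. In Veh against WT, Tgtp1, an immunity-related GTPase, was higher by a log2 fold change of 4.28 (adjusted p = 2.40e-06), Oas1g by 3.55 and Gbp6 by 3.29, by edgeR. Ifit1bl2 was the 1 paralog called lower, at -1.27. Of the 23 tested paralogs, 10 were lower in Anti-miR-21 than in Veh, where 30.5% of all genes were lower and 28.8% higher. In ACEi 7 were lower than in Veh, where 19.1% of all genes were lower and 21.0% higher. With 0 paralogs, neither treatment had any called higher. Some of these genes may share sequence with others of their clusters, which was not measured, so how reads were shared between them is uncertain.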
